A study of Sus scrofa with 16 samples.

Results

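The genes described are 10 members of the transforming growth factor beta (TGF-beta) superfamily and of the proteins that hold its ligands latent, read out of the 22629 genes in the expression tables by their symbols. They are the isoforms *TGFB1*, *TGFB2* and *TGFB3*, the latent TGF-beta binding proteins *LTBP1*, *LTBP2* and *LTBP3*, the ligand genes *INHBA*, *GDF10* and *BMP4*, and the BMP antagonist *GREM1*. All 10 symbols were found, and 9 passed the filter on low counts, with *GREM1* left out of every test. RNA-seq had been performed on left ventricle from 8 White Yorkshire-Landrace farm pigs, 4 subjected to ischemia/reperfusion (IR) and 4 to sham surgery, each with 1 sample of the scar zone and 1 of the border zone, 16 samples in all.

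Surgery took place at 30 days of age (P30), and tissue was taken 4 weeks later. In IR pigs the left anterior descending artery (LAD) was snared for 1 h below its second diagonal branch and then reperfused, and these pigs received heparin. Sham pigs had the chest opened and the suture placed without being tightened, and heparin was described for IR pigs only. The IR pigs were females 2 and 14 and males 9 and 11, and the sham pigs were females 4 and 5 and males 12 and 13. The results of the study describe the scar zone as the piece just distal to the suture in both groups. Its methods place the piece below the occlusion site, and in sham pigs at that site. The scar zone is therefore a position, and whether it was the same in both groups is not settled by these descriptions. It held injured and viable myocardium in IR pigs. In sham pigs it held myocardium at or next to the suture that had not been made ischemic. Heart muscle markers such as *TNNT2* and *MYH7* were high in every sample, with a summed level of 57680 to 91720 CPM (counts scaled to a common library size) over 8 of 8 cardiomyocyte markers.

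TGF-beta isoforms are secreted in a latent complex, in which the propeptide of the ligand stays wrapped around it and is tethered to the matrix by an LTBP. Integrins and proteases release the ligand, which then signals through paired serine/threonine kinase receptors and SMAD proteins. In the heart this pathway is known for turning fibroblasts into matrix-producing cells after injury. Activins and bone morphogenetic proteins (BMPs) use related receptors, and antagonists such as gremlin bind BMPs outside the cell.

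The estimated counts of a sample added up to 15427663 to 49045206, so 3 counts corresponded to 0.0612 to 0.194 CPM. The libraries of IR males were the deepest, at 33521418 to 49045206 counts in both zones, against 15427663 to 21166014 in IR females. The scar zone libraries of pigs 9 and 11 also stood apart in their fibroblast markers, as given beside the results. CPM values are scaled by TMM and compare samples for 1 gene. TPM values are also scaled for transcript length and compare genes. In the scar zone library of pig 9 the median ratio of TPM to CPM was 0.582, against 0.353 to 0.439 in the other 15 libraries, so TPM of that sample runs high for most genes.

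In sham myocardium the family was led by *LTBP1*, at 20.5 ± 2.20 TPM (SD, n = 4) in the scar zone. *TGFB1* and *TGFB3* followed at 13.3 ± 1.03 and 12.996 ± 2.09 TPM, and their ranges overlapped. *LTBP3* was at 8.09 ± 1.16 TPM, below both isoforms in every sham pig. *TGFB2* (4.89 ± 1.03 TPM) and *BMP4* (3.84 ± 0.389 TPM) overlapped, and so did *BMP4* and *LTBP2* (2.92 ± 0.684 TPM). *INHBA* at 0.431 ± 0.0658 TPM and *GDF10* at 0.186 ± 0.0882 TPM were the lowest members with signal in every sham scar sample. *LTBP4*, the remaining LTBP and not one of the 10 genes, was more abundant than the other LTBP genes together, with 69.9 to 78.5% of the summed LTBP TPM in all samples but those of the IR scar zone, where it took 57.5 to 72.8%.

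In the IR scar zone the order was different in its middle. *LTBP1* was at 34.9 ± 16.2 TPM and *TGFB3* at 34.4 ± 26.9 TPM, followed by *LTBP3* (18.3 ± 13.3 TPM), *LTBP2* (15.1 ± 14.3 TPM) and *TGFB1* (14.02 ± 4.98 TPM). Every neighbouring pair in this order overlapped between pigs. The standard deviations were close to the means for *TGFB3*, *LTBP2* and *INHBA*, since a pair of the 4 pigs carried most of the signal.

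**Figure D1:**
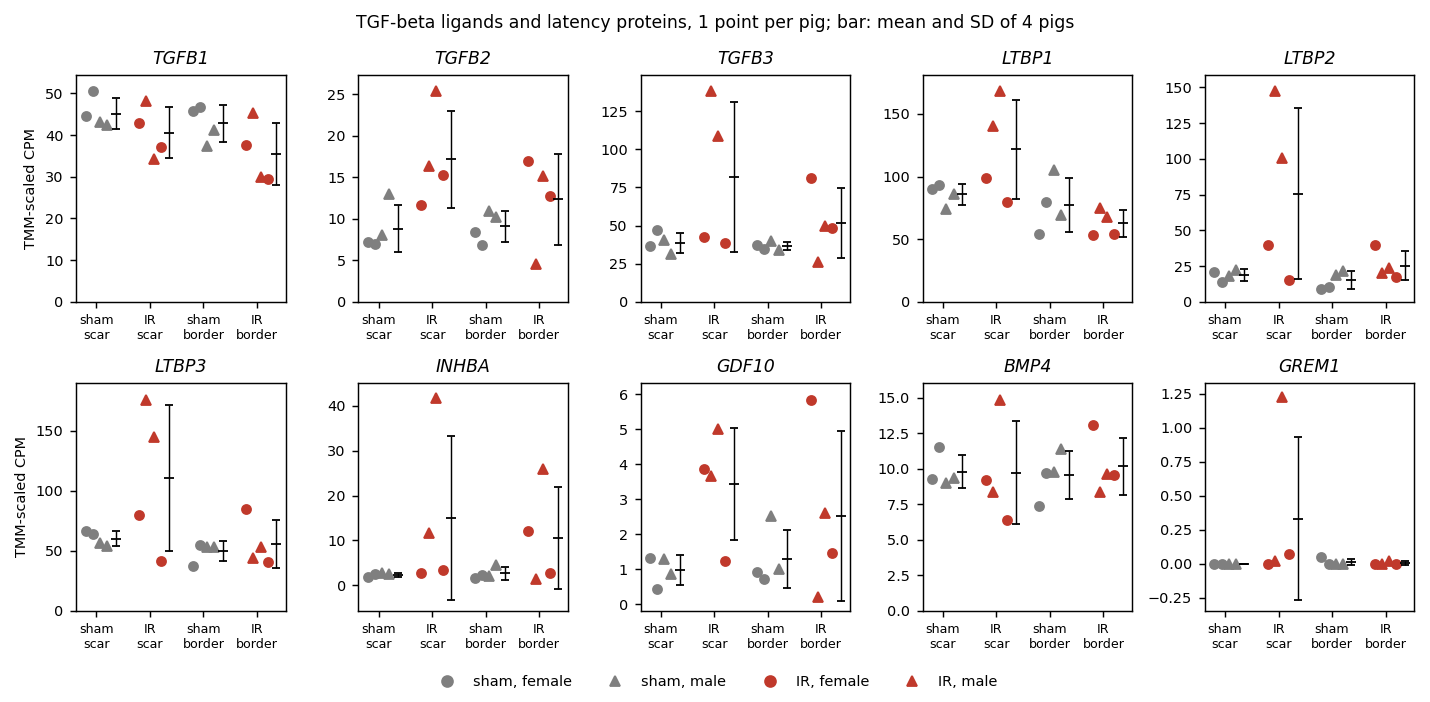
CPM (TMM-scaled, y axis) of the 10 genes in each sample, by group on the x axis, with females as circles, males as triangles, and the mean and SD of 4 pigs as a bar. The triangles of the IR scar zone stand above the 6 other scar samples for *TGFB2*, *TGFB3*, *LTBP1*, *LTBP2*, *LTBP3* and *INHBA*, and *TGFB1* and *BMP4* overlap between all groups.

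The first comparison asked how IR and sham pigs differed in the scar zone 4 weeks after surgery. Higher in IR pigs at an unadjusted p of at most 0.05 were 7 of the 9 tested genes, namely *TGFB2*, *TGFB3*, *LTBP1*, *LTBP2*, *LTBP3*, *INHBA* and *GDF10*, and the same held for 6.57% of all 14023 genes tested. With a fold change of at least 2 also required, the genes were 4, *TGFB3*, *LTBP2*, *INHBA* and *GDF10*, against 2.74% of all genes. None of the 9 passed at an adjusted p of 0.05 (edgeR quasi-likelihood test, Benjamini-Hochberg), as no gene of the whole table did, and DESeq2 passed 1, *GDF10* (adjusted p = 0.0331), against 64 genes or 0.344% of the 18599 with counts. Over the 9 genes the log2 fold change had a median of 0.95, against 0.03 for all genes. *TGFB1* and *BMP4* had values of -0.16 and -0.02.

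*TGFB1*, the isoform best known from fibrosis, was at 42.8, 37.1, 48.1 and 34.3 CPM in the scar zone of IR pigs 2, 14, 9 and 11. In sham pigs 4, 5, 12 and 13 it was at 44.5, 50.5, 43.1 and 42.4 CPM. The groups overlapped, and 2 IR pigs lay below all sham pigs. The log2 fold change was -0.16 (SE 0.13), with an adjusted p of 0.617 by edgeR.

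*TGFB2*, an isoform used in heart valve and outflow tract development, was at 11.7, 15.3, 16.3 and 25.3 CPM in IR pigs 2, 14, 9 and 11. It was at 7.23, 6.99, 8.10 and 12.96 CPM in sham pigs 4, 5, 12 and 13. Here 3 IR pigs exceeded every sham pig, with pig 2 within their range because of sham pig 13. Its log2 fold change was 0.95 (SE 0.27, edgeR adjusted p = 0.438), just under the fold threshold, which it passed without pig 2 (1.09), pig 14 (1.005) or sham pig 13 (1.20).

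*TGFB3*, the isoform tied to palate closure and to milder scarring in skin, was at 42.2, 38.9, 138 and 109 CPM in IR pigs 2, 14, 9 and 11. Sham pigs 4, 5, 12 and 13 had 36.5, 47.0, 40.5 and 31.2 CPM. Both IR females lay inside the sham range, and both IR males lay above it. IR pigs had a log2 fold change of 1.07 (SE 0.39, edgeR adjusted p = 0.438). Without pig 9 it was 0.68, without pig 11 0.91 and without sham pig 13 0.98, and in each of these fits *TGFB3* was no longer past the unadjusted threshold with a 2-fold change. It also fell under 2-fold with sex as a covariate (0.87) and with 1 factor of unwanted variation (0.80).

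*TGFB1* made up 41.9 to 44.2% of the summed TPM of the 3 isoforms in the sham scar zone, and 38.4, 35.1, 20.7 and 16.8% in IR pigs 2, 14, 9 and 11, so all 4 IR pigs lay below all sham pigs. *TGFB3* made up 41.7 to 67.5% in the IR scar zone and 35.3 to 44.9% in sham scar samples, and *TGFB2* 11.8 to 23.2% and 12.6 to 22.5%, so both of these shares overlapped. These shares are ratios within a sample and do not depend on its scaling. In the border zone the *TGFB1* share was 23.8 to 27.7% in IR pigs 2, 11 and 14 and 54.6% in pig 9, around a sham range of 36.2 to 46.4%. No test was made of the shares, which combine several genes, and no rate over all genes stands beside this separation. *TGFB1* itself overlapped between the groups, and its share also falls where the other isoforms are higher.

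**Figure D2:**
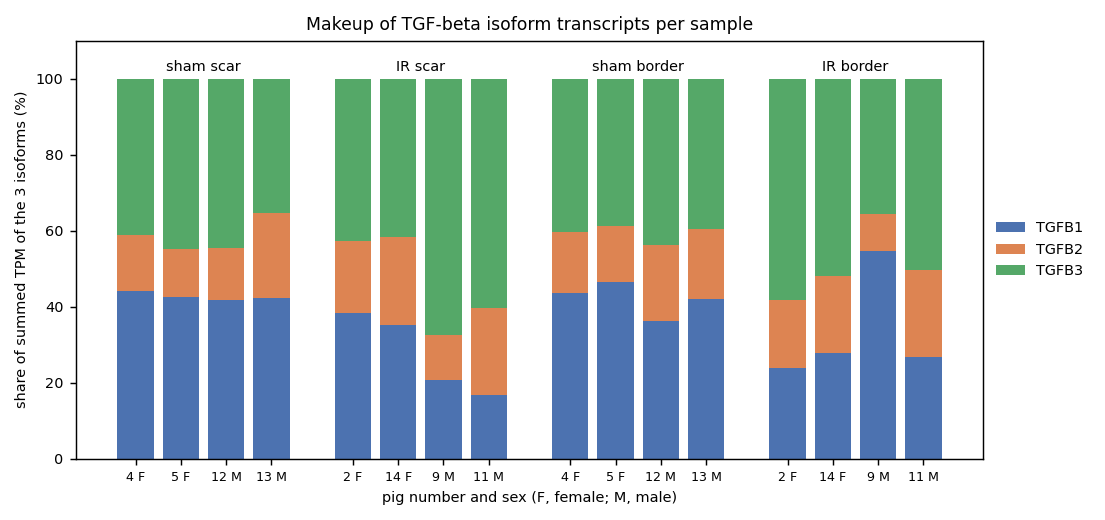
Share (y axis, %) of *TGFB1*, *TGFB2* and *TGFB3* in their summed TPM for each sample, with the pig number and sex on the x axis. In the scar zone *TGFB1* is at most 38.4% in all IR pigs and at least 41.9% in all sham pigs, and in the border zone pig 9, at 54.6%, stands apart from the other IR pigs.

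*LTBP1*, which links latent TGF-beta to the matrix, was at 98.6, 79.9, 140 and 168 CPM in IR scar zone samples of pigs 2, 14, 9 and 11. Sham pigs 4, 5, 12 and 13 were at 90.3, 93.2, 74.4 and 85.8 CPM. All IR pigs but pig 14 were above the sham range. This gave a log2 fold change of 0.49 (SE 0.22, edgeR adjusted p = 0.445). Of the 8 fits without 1 pig, those without pig 2 or pig 14 kept *LTBP1* and *LTBP3* at an unadjusted p of at most 0.05, and the other 6 did not.

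*LTBP2*, an LTBP that associates with microfibrils but does not bind latent TGF-beta, was at 40.0, 15.1, 147 and 101 CPM in IR pigs 2, 14, 9 and 11. It was at 20.9, 13.6, 17.7 and 22.6 CPM in sham pigs 4, 5, 12 and 13. Pig 14 lay within the sham range and the other 3 IR pigs lay above it. The log2 fold change was 2.02 (SE 0.57, edgeR adjusted p = 0.438), the highest of the LTBP genes. Its share of the summed TPM of *LTBP1* to *LTBP3* was 8.75 to 28.4% in IR scar and 6.45 to 11.2% in sham scar samples.

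*LTBP3*, which also carries latent TGF-beta and is known from bone and tooth growth, was at 80.0, 41.3, 176 and 145 CPM in IR pigs 2, 14, 9 and 11. In sham pigs 4, 5, 12 and 13 it was at 66.8, 63.5, 56.5 and 53.9 CPM. Pig 14 was below all sham pigs and the other IR pigs were above them. Its log2 fold change was 0.87 (SE 0.37, edgeR adjusted p = 0.438), and it was 1.14 without pig 14 and 0.54 without pig 9. *LTBP4*, at 291 to 443 CPM in the IR scar zone and 333 to 431 CPM in the sham scar zone, had a log2 fold change of 0.04 (SE 0.17).

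The summed TPM of *LTBP1* to *LTBP3* divided by that of the 3 isoforms was 0.857 to 1.25 in IR and 0.922 to 1.14 in sham scar samples. The groups overlapped in this ratio, although both sums were high in pigs 9 and 11. With *LTBP4* added to the LTBP sum, the ratio was 2.76 to 4.20 in IR and 3.61 to 4.69 in sham scar samples. Pig 2 lay within the sham range of that ratio, and the other IR pigs lay below it. Both ratios count *LTBP2*, which does not bind latent TGF-beta, and neither ratio was tested.

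*INHBA*, which encodes the subunit of activin A, was at 2.83, 3.54, 11.7 and 41.7 CPM in the scar zone of IR pigs 2, 14, 9 and 11. Sham pigs 4, 5, 12 and 13 were at 1.81, 2.46, 2.75 and 2.49 CPM. It was the only one of the 10 genes for which every IR pig exceeded every sham pig in the scar zone, as was the case for 2.20% of all tested genes. The gap between pig 2 and sham pig 12 was small, and the IR pigs spread over a 14.7-fold range. The log2 fold change was 2.65 (SE 0.78, edgeR adjusted p = 0.438), or 6.27-fold, and it was 1.35 without pig 11. *INHBB*, which encodes the subunit of activin B, had a log2 fold change of -0.11 (SE 0.44). The ratio of *INHBA* to *INHBB* TPM was 0.225 to 14.5 in IR scar and 0.237 to 0.613 in sham scar samples.

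*GDF10*, also called BMP3B, was at 3.87, 1.23, 3.66 and 4.998 CPM in IR pigs 2, 14, 9 and 11. In sham pigs 4, 5, 12 and 13 it was at 1.31, 0.431, 1.30 and 0.869 CPM. Pig 14 lay within the sham range and the other 3 lay above it, 1 of them female. The test gave a log2 fold change of 1.81 (SE 0.47, edgeR adjusted p = 0.438), and its p was the lowest of the 9 genes. These are low levels, with 3 counts worth up to 0.194 CPM.

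*BMP4*, a BMP ligand with roles in heart development, was at 9.24, 6.40, 8.39 and 14.8 CPM in IR pigs 2, 14, 9 and 11. Sham pigs 4, 5, 12 and 13 had 9.31, 11.6, 9.0004 and 9.37 CPM. The IR values lay on both sides of the sham range, and the log2 fold change was -0.02 (SE 0.24, edgeR adjusted p = 0.982).

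*GREM1* encodes gremlin 1, which binds and blocks BMPs. It had an estimated count of 0 in 11 of 16 libraries and of 1 in each of 4 more. The exception was the scar zone of pig 11, with 41 counts or 1.23 CPM. The other libraries were thus all under the 3 counts that a value of 0 allows, which correspond to at most 0.194 CPM.

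**Figure D3:**
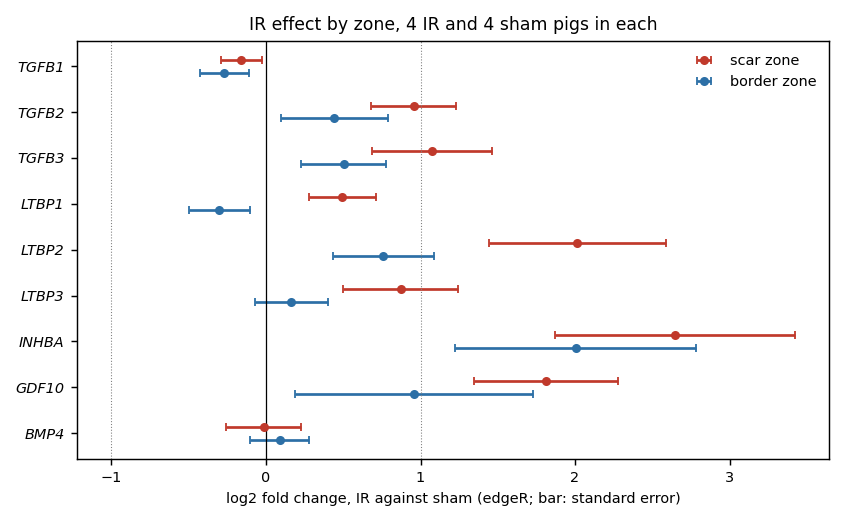
Log2 fold change of IR against sham pigs (x axis) for the 9 tested genes, by zone. Bars are standard errors derived from the edgeR F statistic, and dotted lines mark a 2-fold change. *LTBP2*, *INHBA* and *GDF10* lie farthest to the right in the scar zone, and *LTBP1* is at 0.49 in scar and at -0.30 in border samples.

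The scar zone values of 6 of the 9 tested genes, *TGFB2*, *TGFB3*, *LTBP1*, *LTBP2*, *LTBP3* and *INHBA*, were higher in both IR males than in the 6 other scar samples. That pattern was common, with 18.0% of all genes tested in the scar zone showing it. Without pigs 9 and 11, in a fit of 2 IR females and 4 sham pigs, the log2 fold change was 0.06 for *TGFB3*, 0.05 for *LTBP1*, 0.01 for *LTBP3*, 0.56 for *LTBP2*, 0.41 for *INHBA* and 0.61 for *TGFB2*. Only *GDF10* stayed past the unadjusted threshold, at 1.38, so the count of 4 genes became 1, while the share of all genes called fell from 2.74% to 0.782%. These 2 pigs were left out together after their values had been seen.

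Fibroblast markers moved with these values. Their summed level over 8 of 8 markers was 3338 and 2627 CPM in the scar zone of IR females 2 and 14, 12352 and 19675 CPM in IR males 9 and 11, and 2741 to 3740 CPM in sham pigs. Of these markers 3, *COL1A1*, *COL1A2* and *POSTN*, passed the unadjusted threshold with a 2-fold change in the scar zone, against 2.74% of all genes, and none was at 0 in any group. Cartilage-like markers summed to 200 CPM in pig 9 and 6.13 to 18.4 CPM in the other IR scar samples, against 6.82 to 9.18 CPM in sham scar samples. Leukocyte markers summed to 262 and 281 CPM in IR males 9 and 11, above the 134 and 163 CPM of IR females 2 and 14 and the 108 to 203 CPM of sham scar samples, and 0 of 7 passed the unadjusted threshold. Mesothelial and epicardial markers were low, and only 2 of 5 were found. Their sum was also highest in IR males 9 and 11, at 10.4 and 12.8 CPM against 4.90 to 7.82 CPM in the 6 other scar samples. Cardiomyocyte markers summed to 57680 to 74397 CPM in IR and 63779 to 89859 CPM in sham scar samples, and smooth muscle and pericyte, endothelial and adipocyte markers also overlapped between the groups. The part of these cells in the values of the 10 genes was not tested. In bulk tissue, more cells of a type and more RNA per cell cannot be told apart.

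The study held both sexes, so the IR effect in the scar zone was compared between males and females, with 2 pigs in each of the 4 cells. *TGFB3* had a log2 fold change of 1.77 (SE 0.20) in males and of -0.06 (SE 0.20) in females. The difference of 1.83 (SE 0.28) was past the adjusted threshold (edgeR adjusted p = 0.0316), where 0.998% of the 14624 genes tested were called in that direction. It was 1.64 to 2.02 without any 1 pig, but the adjusted p stayed under 0.05 in 1 of the 8 such fits, that without pig 11, and was 0.0513 to 0.125 in the other 7.

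At the unadjusted threshold the difference between the sexes was called for 4 of the 9 genes, against 6.20% of all genes. They were *TGFB3*, *LTBP2* with a difference of 1.94 (SE 0.60, edgeR adjusted p = 0.1496), *LTBP3* with 1.65 (SE 0.39, adjusted p = 0.0834) and *INHBA* with 2.77 (SE 0.78, adjusted p = 0.116). *LTBP1* had a difference of 0.99 (SE 0.23, edgeR adjusted p = 0.0814), just under 2-fold. Leaving out 1 pig, the difference ran from 1.41 to 2.82 for *LTBP2*, 1.25 to 2.21 for *LTBP3*, 1.59 to 3.44 for *INHBA* and 0.84 to 1.15 for *LTBP1*. DESeq2 passed 4 of the 9 at the adjusted threshold, where it called 691 genes in both directions, or 3.72% of the 18599 with counts.

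*GDF10* and *TGFB2* were not called for a difference between the sexes. The IR effect on *GDF10* was 1.98 (SE 0.63) in males and 1.55 (SE 0.66) in females on the log2 scale, with a difference of 0.43 (SE 0.91, edgeR adjusted p = 0.849). *TGFB2* had 0.97 (SE 0.29) in males and 0.91 (SE 0.30) in females, with a difference of 0.07 (SE 0.41, edgeR adjusted p = 0.958). With 2 pigs in a cell these errors are wide, and a p above the threshold does not show that the sexes were alike. Fibroblast markers differed in the same direction, 6 of 8 past the adjusted threshold against 0.998% of all genes. Library depth also differed between IR males and IR females. Within a sex of 2 pigs per group, sex and the individual animals cannot be told apart.

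**Figure D4:**
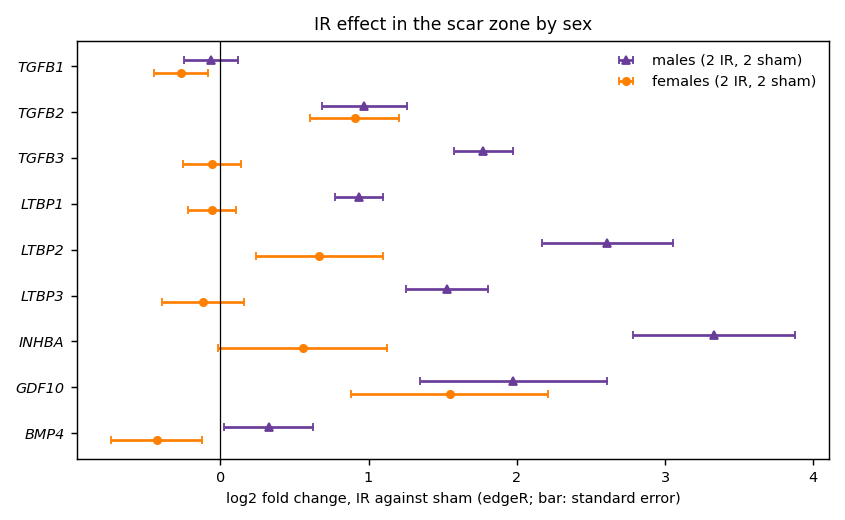
Log2 fold change of IR against sham in the scar zone (x axis) in males and in females, 2 IR and 2 sham pigs each. Bars are standard errors derived from the edgeR F statistic. For *TGFB3*, *LTBP1* and *LTBP3* the females lie near 0 (-0.06, -0.05 and -0.12) and the males between 0.93 and 1.77, and for *TGFB2* and *GDF10* the bars overlap.

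In the border zone the same genes were compared next to the injury. Past the unadjusted threshold with a fold change of at least 2 was 1 of the 9 genes, *INHBA*, against 0.517% of the 13728 genes tested. Without the fold threshold *LTBP2* was added, against 2.09% of all genes. No gene of the table passed the adjusted threshold by edgeR, DESeq2 passed none of the 9, and none of the 9 separated IR from sham pigs without overlap, which 0.794% of all genes did.

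*INHBA* was at 12.1, 2.80, 1.42 and 26.0 CPM in the border zone of IR pigs 2, 14, 9 and 11, and at 1.61, 2.30, 2.09 and 4.65 CPM in sham pigs 4, 5, 12 and 13. Pigs 2 and 11 were far above the sham range, and pig 9 was below it. The log2 fold change was 2.00 (SE 0.78, edgeR adjusted p = 0.988), and 1.02 without pig 11. It was no longer past the unadjusted threshold without pig 11, or without sham pig 4, 5 or 12.

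*LTBP2* was at 39.9, 17.6, 20.1 and 24.0 CPM in the border zone of IR pigs 2, 14, 9 and 11, against 9.15, 10.3, 19.0 and 21.6 CPM in sham pigs 4, 5, 12 and 13. The groups overlapped, and the log2 fold change was 0.76 (SE 0.33, edgeR adjusted p = 0.988). Its unadjusted p was above 0.05 without pig 2 or 11, or without sham pig 4 or 5.

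*TGFB3* in the border zone was at 81.5, 48.5, 26.0 and 50.0 CPM in IR pigs 2, 14, 9 and 11 and at 34.2 to 39.9 CPM in sham pigs. Here 3 IR pigs exceeded every sham pig and pig 9 was below them, with a log2 fold change of 0.50 (SE 0.28, edgeR adjusted p = 0.988). *TGFB2* had the same arrangement, at 16.96, 12.8, 4.58 and 15.1 CPM in IR pigs 2, 14, 9 and 11 against 6.81 to 10.97 CPM in sham pigs (log2 fold change 0.44, SE 0.35). *GDF10* was at 5.84, 1.46, 0.199 and 2.61 CPM in IR pigs 2, 14, 9 and 11, against 0.717 to 2.52 CPM in sham pigs (log2 fold change 0.96, SE 0.77). Pig 9 thus had the lowest border zone value of *TGFB2*, *TGFB3*, *INHBA* and *GDF10* among all 8 pigs, and in the scar zone it had 1 of the 3 highest values of each. Without pig 9, *GDF10* passed the unadjusted threshold at 1.36, so 2 genes were called against 0.902% of all genes in that fit, and without pig 2 it was at 0.14.

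*LTBP1* was at 53.5 to 75.2 CPM in the IR border zone and 54.2 to 105 CPM in the sham border zone (log2 fold change -0.30, SE 0.20). *LTBP3* (0.16, SE 0.23), *TGFB1* (-0.27, SE 0.16) and *BMP4* (0.09, SE 0.19) also overlapped between the groups. Fibroblast markers summed to 2219 to 3980 CPM in the IR border zone and 2680 to 3606 CPM in the sham border zone.

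The difference between the sexes was also fitted in the border zone. None of the 9 genes had a higher IR effect in males past the unadjusted threshold, against 1.61% of all genes. *LTBP2* was past it in the other direction, with a difference of -1.44 (SE 0.48, edgeR adjusted p = 0.641), as were 2.61% of all genes, and *TGFB3* had -0.82 (SE 0.47).

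Whether the IR effect differed between the zones was tested over all 16 samples. None of the 9 genes was past the unadjusted threshold, which 1.32% of the 14278 genes tested were in the direction of a higher effect in scar. *LTBP1* came nearest, with a difference of 0.80 (SE 0.32, edgeR adjusted p = 1.00), under 2-fold. With the pig as a replicate block it was 0.73 (SE 0.25, edgeR adjusted p = 0.702), and it was the only one of the 9 at an unadjusted p of at most 0.05, as 4.24% of all genes were. The other differences ranged from -0.09 for *BMP4* to 1.27 for *LTBP2* (SE 0.71). Leaving out 1 pig, the difference ran from 0.59 to 1.77 for *LTBP2*, 0.27 to 1.11 for *LTBP3* and -0.047 to 1.11 for *TGFB3*. Without pig 2, 3 genes passed the unadjusted threshold, namely *TGFB3* at 1.11, *LTBP2* at 1.77 and *LTBP3* at 1.11, against 2.42% of all genes in that fit, and without pig 14 *LTBP2* did at 1.44, against 2.18%.

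Zones of the same hearts were then compared. In IR pigs *LTBP1* was higher in scar than in border samples in each of the 4 pigs, by 0.88, 0.56, 0.90 and 1.32 on the log2 CPM scale in pigs 2, 14, 9 and 11. It was the only one of the 9 genes whose IR scar samples all lay above all IR border samples, which 1.18% of the 14170 genes tested did. Being higher in scar in each IR pig was less rare, at 10.7% of genes, and held for *LTBP1* and *TGFB1*. In sham pigs the difference for *LTBP1* ran from -0.50 to 0.74 and was negative in pig 12. The summed fibroblast markers were higher in scar than in border samples in IR pigs 9 and 11 (12352 against 2219 and 19675 against 3980 CPM) and lower in pigs 2 and 14 (3338 against 3727 and 2627 against 2767 CPM). Summed leukocyte markers were higher and summed cardiomyocyte markers lower in the scar zone of all 4 IR pigs, at 125 to 205 and 72110 to 91720 CPM in the border zone. The part of these cells in the zone differences was not tested.

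The log2 fold change of *LTBP1* between the zones of IR pigs was 0.96 (SE 0.24, edgeR adjusted p = 0.989), and 0.92 (SE 0.13, edgeR adjusted p = 0.431) with the pig as a replicate block. Past the unadjusted threshold with a 2-fold change was *LTBP2* alone, at 1.58 (SE 0.60), against 1.69% of all genes. With the replicate block *LTBP2* was at 1.23 (SE 0.56, edgeR adjusted p = 0.435) and no longer past it. Without the fold threshold, *LTBP1*, *LTBP2* and *LTBP3* were called, against 3.55% of all genes. With the replicate block and no fold threshold they were *LTBP1* and *TGFB1* (0.20, SE 0.08), against 6.49% of all genes, and *LTBP2* and *LTBP3* were not. *LTBP2* also lost its call without pig 9 (0.94) or pig 11 (1.39), and in each limma fit. In limma on log2(TPM + 1) it was at 1.21, and *LTBP1* passed in its place at 1.03. Without pig 2 *LTBP3* (1.40) and *TGFB3* (1.20) passed beside it, against 2.60% of all genes, and without pig 14 *LTBP1* (1.04) and *LTBP3* (1.12) did, against 2.61%.

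Individual pigs ran in opposite directions. In pig 9 the scar zone was above the border zone by 3.75 for *GDF10*, 2.97 for *INHBA*, 2.87 for *LTBP2* and 2.41 for *TGFB3* on the log2 CPM scale. In pig 2 the border zone was above the scar zone, and the differences were -2.07 for *INHBA*, -0.95 for *TGFB3*, -0.59 for *GDF10* and -0.53 for *TGFB2*. *TGFB1* had the narrowest range over the 4 IR pigs, 0.09 to 0.34.

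In sham pigs, where neither zone had been made ischemic, none of the 9 genes was past the unadjusted threshold, as against 0.0290% of the 13803 genes tested that were higher in scar. *LTBP3* was higher in the scar zone in each of the 4 sham pigs, as were 6.91% of those genes, with a log2 fold change of 0.28 (SE 0.14), or 0.29 (SE 0.13, edgeR adjusted p = 0.931) with the replicate block. In that blocked fit it was at an unadjusted p of at most 0.05, as were 2.68% of all genes.

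**Figure D5:**
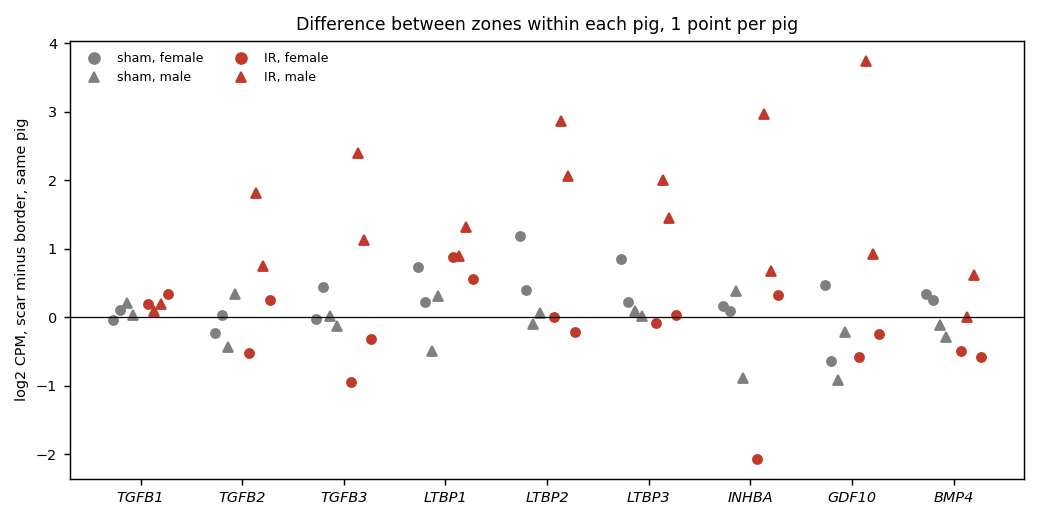
Difference in log2 CPM between the scar and the border zone of the same pig (y axis) for the 9 tested genes, with sham pigs in grey, IR pigs in red, females as circles and males as triangles. All 4 IR points of *LTBP1* lie above 0 (0.56 to 1.32), the IR points of *INHBA* run from -2.07 to 2.97, and sham points lie between -0.92 and 1.18.

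The other genes of the pathway were read from lists by role. These lists, like the 10 genes, are described by counts, with changes at the unadjusted threshold and a fold change of at least 2 in the scar zone, which 2.74% of all tested genes met in the upward direction. In lists of this size a single gene past it is read as no result about the list. Among 25 other ligands 12 were tested and 2 were higher in IR pigs, *BMP7* at 2.21 (SE 0.71) and *BMP3* at 2.17 (SE 0.73) on the log2 scale, with a list median of 0.03. Both were low, at no more than 4.04 and 4.61 CPM in any IR scar sample. *INHA*, the ligand gene with the highest TPM in that list, had -0.72 (SE 0.39).

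None of 13 tested receptors and co-receptors was past the threshold. *TGFBR2*, the type II TGF-beta receptor and the highest of them in TPM, had a log2 fold change of 0.02 (SE 0.17), and the list median was 0.09. Of 15 SMADs and SMAD regulators 1 was higher, *SMAD9*, a BMP-type SMAD, at 1.48 (SE 0.43), and *SMAD4*, the shared SMAD, had 0.14 (SE 0.14). Of 18 latency and activation genes 1 was higher, *MMP9* at 3.84 (SE 1.56), but its IR scar values ran from 0 to 22.7 CPM. *ITGB1*, an integrin subunit, had 0.21 (SE 0.13), and the list median was 0.48.

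Of 13 tested extracellular antagonists 3 were higher, *FMOD* at 3.22 (SE 0.78), *BGN* at 1.82 (SE 0.46) and *CHRDL1* at 1.15 (SE 0.50). *FMOD* and *BGN* are small proteoglycans of collagen matrix that bind TGF-beta, and *CHRDL1* binds BMPs. *DCN*, the most abundant of the list, had 0.62 (SE 0.38), and the list median was 0.81.

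TGF-beta target genes had 7 of 18 tested members past the threshold, all higher, and 18 of 18 with a positive log2 fold change, as had 53.9% of all genes. In females alone 11 of 18 were positive, with a median of 0.03, against 50.1% of all genes. In males 18 of 18 were, with a median of 1.39, against 51.1% of all genes. *CDKN1A*, a cell cycle inhibitor, was at 1.87 (SE 0.43), *TNC*, a matrix glycoprotein of wounds, at 3.48 (SE 0.95), *ELN*, elastin, at 1.502 (SE 0.46) and *COL1A1*, a chain of type I collagen, at 1.96 (SE 0.64). *COL3A1*, with the highest TPM, had 1.13 (SE 0.55), and the list median was 0.78. Of 9 tested BMP target genes 2 were higher, *ID4* at 1.63 (SE 0.43) and *ID2* at 1.33 (SE 0.43), with *ID3* at 0.44 (SE 0.16) and a list median of 0.21. All adjusted p-values in these lists were at least 0.438 by edgeR. Some targets are also fibroblast markers, whose summed level is given above.

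In the border zone none of these lists had a gene past the threshold but the TGF-beta targets, where *CDKN1A* was at 1.47, against the 0.517% of all genes given above. In the difference of the IR effect between the sexes in the scar zone, 7 of 18 TGF-beta targets were past the adjusted threshold in the direction of males, as were 4 of 13 antagonists, 3 of 18 latency and activation genes, 0 of 14 receptors and co-receptors, 0 of 15 SMADs and SMAD regulators and 0 of 13 other ligands, against the 0.998% of all genes given above. Of 9 BMP targets 3 had a positive difference (median -0.10), and 1, *HEY1*, was past the adjusted threshold in the opposite direction at -1.22 (SE 0.22, edgeR adjusted p = 0.0430), against 0.335% of all genes. *HEY1* was named after its value had been seen.

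Genes whose log2 CPM ran most like that of each gene over the 16 samples were sought among 12136 others listed by symbol. Each pig gave 2 of these samples, and r is given as a description. *TGFB3* ran with *CCDC80* (r = 0.95) and *RCN3* (0.94), *LTBP2* with *EPHB3* and *COL8A2* (both 0.95), and *LTBP3* with *SSC5D* and *COL5A1* (both 0.97). Without the scar zone samples of pigs 9 and 11 these were 0.84, 0.81, 0.86, 0.79, 0.92 and 0.89 in the same order. *INHBA* ran with *HBEGF* (0.93) and *SNX24* (0.92), *LTBP1* with *B3GALT5* (0.91) and *CH25H* (0.86), and *GDF10* with *SERPINE2* (0.88) and *SLCO3A1* (0.87). *TGFB2* ran with *LMNTD1* (0.93) and *RASSF8* (0.92), *TGFB1* with *CYB5R3* (0.88) and *YPEL3* (0.87), and *BMP4* with *ACCS* (0.80) and *ADGRD1* (0.79).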

How the data were processed

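Polyadenylated RNA of 16 samples (scar and border zones of 4 IR and 4 sham pigs) had been sequenced by the authors on a stranded library. The submitters' processing notes name Trimmomatic 0.33, HISAT2 2.0.5 and kallisto 0.43.1. The genome build is not given in the sources used here, and no coordinates or sequences are printed. The deposited estimated counts are kallisto's sums of partial read assignments per gene, unscaled. The deposited TPM values are the same estimates scaled by the authors for transcript length and depth. Groups, zone, sex and pig came from the sample labels. The number in a label is the pig, so the scar and border samples of a number come from 1 animal (correlations of their deviations from the group means were 0.354 to 0.692 over 14278 genes).

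Estimated counts were rounded and fitted over all genes in edgeR 4.0.16 (R 4.3.3) with TMM scaling, filterByExpr (minimum count 10, minimum total 15), the quasi-likelihood test and Benjamini-Hochberg adjustment. Calls needed a fold change of 2 with an adjusted or, separately, an unadjusted p of 0.05. The study used RUVSeq without naming its control genes, so no such factor entered the main test. Log2 CPM used a prior count of 2. The quasi-likelihood test gives no standard error. The SE printed is the absolute log2 fold change divided by the square root of the F statistic of that test. P-values of comparisons within a zone measure the spread between pigs. The main fits that compare zones have no term for the pig, so both samples of a pig enter as if independent. Their p-values mix the spread between pigs with that within pigs. With the replicate block, p-values measure the spread of the differences within pigs. Totals ran from 15427663 to 49045206 counts, and floors cover counting error only. Alternatives were DESeq2 1.42.0, upper-quartile scaling, no filter, limma 3.58.1 on log2(TPM + 1) or log2(TPM + 0.1), 1 factor of unwanted variation over 5000 control genes, the replicate block, sex as a covariate, 1 fit over both zones, no fold threshold and leaving out each pig. The fits of sex in the border zone, within each sex and without both male IR pigs were chosen after seeing the data. The fits were also run on simulated counts with independent samples and a capped spread. That run does not cover the pairing of zones or the spread between these pigs.

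The 10 genes, the pathway lists and the marker lists were chosen with earlier results of these data known. Named are the 10 genes, up to 4 genes per list and direction past the unadjusted threshold in the scar zone with the lowest p, the list member with the highest mean TPM, and the 2 genes most correlated with each of the 9 tested. *LTBP4*, *INHBB* and the fibroblast markers past the threshold were named outside that rule, after their values were seen.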

Additional observations from a re-analysis of the deposited data

Results flagged for a closer look

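Outlying samples were sought by Dixon's ratio in groups of 4 samples. Of 37 groups in which a sample had at least 3 counts 4 had one, where chance gives about 1 in 20 groups. *LTBP3* in the border zone of sham pig 4 was at 37.2 CPM, below the other sham pigs. *GDF10* in the border zone of sham pig 12 was at 2.52 CPM, above the others. *BMP4* in the scar zone of sham pig 5 was at 11.6 CPM, above the others. *GREM1* stood out in the scar zone of IR pig 11 at 1.23 CPM (41 counts). Its values of 0.0231 CPM in the border zone of pig 11 and 0.0487 CPM in the border zone of sham pig 4 are 1 count each beside pigs at 0, where the ratio is fixed by that count and says nothing.

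The IR effect on *TGFB3* in the scar zone differed between males and females by 1.83 on the log2 scale (edgeR adjusted p = 0.0316, 2 pigs in each cell, both IR males above and both IR females within the range of the sham pigs). Fibroblast markers, the summed leukocyte markers and library depth also differed between those IR males and IR females, and their part in the difference was not tested.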

How the results depend on the processing

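At the unadjusted threshold with a 2-fold change, the count of 4 genes in the scar zone was 2 with limma at either pseudocount. In those fits *INHBA* and *GDF10* fell under the filter of 1 TPM in 4 samples and were not tested. The genes that were called, *TGFB3* and *LTBP2*, kept their calls. The count was 1 with limma and no filter, 7 without the fold threshold, 1 without both male IR pigs, and 3 to 6 leaving out 1 pig. At the adjusted threshold DESeq2 gave 1 in place of 0. In the border zone the count of 1 was 0 with each limma fit, but *INHBA* was tested only in the one without a filter (0.72). The count was 2 without the fold threshold, and 0 to 2 leaving out 1 pig. Without both male IR pigs it was 2 (*INHBA*, *GDF10*), in a fit where 93 of all genes were higher. Between the zones of IR pigs the count of 1 was 2 with no filter or with upper-quartile scaling and 3 without the fold threshold. It was 0 with the replicate block, and 0 to 3 leaving out 1 pig. With limma the count stayed at 1, but *LTBP1* was called in place of *LTBP2*. The difference between the zones had 0 genes, 1 without the fold threshold and 0 to 3 leaving out 1 pig. The replicate block changed no other call at the 2-fold threshold. Without a fold threshold *LTBP2* and *LTBP3* lost and *TGFB1* gained a call between the zones of IR pigs, and *LTBP3* gained one between those of sham pigs. The difference between the sexes had 1 gene at the adjusted threshold, 4 with DESeq2 and 3 with limma at either pseudocount, where *INHBA* and *GDF10* were again not tested. The count was 0 with limma and no filter, 2 with no filter on counts, and 0 to 1 leaving out 1 pig. At the unadjusted threshold the count of 4 in that difference was 4 to 6 leaving out 1 pig. Counts given here without a share of all genes are read only as changes of call.

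Direction turned only for log2 fold changes that were small or had not passed. In limma on TPM with pseudocount 0.1 and 1, *BMP4* was 0.098 and 0.096 in the scar zone and 0.038 and 0.044 between the zones of IR pigs, and *TGFB1* was 0.017 and 0.019 in the scar zone. *BMP4* was 0.015 in the difference between zones with pseudocount 1. Leaving out 1 pig, *BMP4* ran from -0.29 to 0.13 in the scar zone, -0.056 to 0.19 in the border zone, -0.36 to 0.10 between the zones of IR pigs, -0.049 to 0.15 between those of sham pigs and -0.41 to 0.064 in the difference between zones. *LTBP3* ran from -0.11 to 0.29 in the border zone and *TGFB3* from -0.047 to 1.11 in the difference between zones. In the difference between the sexes *GDF10* ran from -0.57 to 1.499, *TGFB1* from -0.052 to 0.43 and *TGFB2* from -0.28 to 0.45. Between the zones of sham pigs *INHBA* ran from -0.34 to 0.22, *LTBP1* from -0.0056 to 0.41, *TGFB2* from -0.24 to 0.092 and *TGFB3* from -0.044 to 0.15. The cause was not tested. Depth limits *GREM1* and *GDF10*.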

Other observations

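The transcript length behind the TPM of *TGFB2* moved between pigs. Relative to the median of all samples, its effective length on the log2 scale ran from -0.31 to 0.13, with a spread at percentile 94.5 of 11858 genes. The 4 lowest values were those of both zones of the female sham pigs 4 and 5, at -0.15 to -0.31, and pig 12 followed at -0.11 in its border zone. The other genes of the 10 with enough counts stayed between -0.05 and 0.10. Single transcripts were not analysed here.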
